A study of Mus musculus with 52 samples.

Results

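Bone marrow gene expression was related to the size of the mammary tumors in 6 mice. These were all the transgenic females killed at 12 weeks whose labels record a tumor burden above 0, 6 of the 52 arrays of the series and 6 of its 47 mice. The burdens were 39293, 76666, 114730, 192071, 192718 and 798790, in a unit that the labels do not state. Each gene was related to log10 burden, the 3 mice of highest burden were set against the 3 of lowest burden, and the limits that 6 mice place on an exact permutation test were worked out.

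All 6 mice were BALB/c females of the MMTV-NeuT line (NeuT+), in which a mammary tumor virus promoter drives an activated rat Erbb2 oncogene. That promoter is active mainly in mammary epithelium. Whether the transgene was expressed in the marrow was not tested. The lesion grade in the labels was early carcinoma for 5 of the 6 mice and severe dysplasia for the mouse with a burden of 192071. Set beside them were 3 NeuT+ mice of 12 weeks with no recorded burden, 6 NeuT+ mice of 24 weeks with a recorded burden, and 9 non-transgenic BALB/c siblings (NeuT-) of 12 weeks, 6 with a burden of 0 and 3 with none recorded. The labels grade 8 of these siblings as normal and 1 as mild to moderate dysplasia. With 1 array per mouse, p-values here refer to animal-to-animal spread, and precision is limited by how many arrays there are.

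The marrow makes neutrophils, monocytes, platelets, red cells and B cells, and its stroma, bone and vessel cells supply the factors that steer that output. Growing tumors are known to release cytokines that drive the marrow towards neutrophils and monocytes, some of which suppress T cells. In carriers of an Erbb2 transgene the lesions start as hyperplasia and dysplasia and progress to carcinoma at a pace that differs between animals, which gives mice of the same age and genotype different burdens.

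The burdens spanned a 20.3-fold range, or 1.31 log10 units, and were unevenly spaced. The highest, 798790, stood apart from the other 5, while 192071 and 192718 differed by a factor of 1.003. The 3 high and 3 low mice were separated by a 1.67-fold step between 114730 and 192071. By the leading digits of the animal number the mice fell into 2 number series, whose meaning the labels do not give. Burdens of 39293, 192718 and 798790 belonged to series 11 and burdens of 76666, 114730 and 192071 to series 15. Each series held high and low mice, so slopes are also given with the series as a block. Between series 15 and series 11, 24 of 11309 genes had a limma adjusted p under 0.05, 7 of them higher and 17 lower in series 15.

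The arrays were of like quality. Between 15455 and 16123 probes were detected, median raw signals ran from 108.3 to 153.8, and pairs of arrays correlated between 0.981 and 0.994 over the genes tested. Over the 6 mice neither array measure had an exact two-sided permutation p under 0.05 against log10 burden. With so few mice this does not show that there was no relation. Pearson's r was -0.24 for detected probes (p = 0.65) and -0.42 for the median signal (p = 0.444), with Spearman's rho at -0.20 (p = 0.714) and -0.43 (p = 0.419). The leading principal component of the 6 arrays held 40.9% of the variance and had r = 0.29 with burden (exact permutation p = 0.589) and rho = 0.20 (p = 0.714). The next one held 24.9% and had r = 0.63 (exact permutation p = 0.186) and rho = 0.37 (p = 0.497). The Benjamini-Hochberg adjusted permutation p over these 4 relations was 0.65 for each. Without the mice of lowest and highest burden r was 0.65, 0.15, -0.30 and 0.73 in the order given, over 4 mice.

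No gene's level was related to tumor burden beyond the threshold. In limma's fit of the log2 level on log10 burden, 0 of 11309 genes (0%) had an adjusted p under 0.05, and the smallest adjusted p was 0.916. An unadjusted p under 0.05 was reached by 561 genes (4.96%), of which 322 (2.85%) had a positive slope and 239 (2.11%) a negative one. Slopes are given in log2 units per 10-fold higher burden. Their median over all genes was 0.0093, the 5th and 95th percentiles were -0.44 and 0.41, and 51.8% were positive. Among the 8179 genes detected on all 6 arrays the median standard error of a slope was 0.18, and the 95% confidence interval reached a median of 0.43 to either side of the estimate. For a typical gene, a slope smaller than that had an unadjusted interval that included no change. The adjusted threshold asked for more: the slope of Itch, 1.07 ± 0.154, had a limma adjusted p of 0.916. The count at an unadjusted p under 0.05 was 852 without the mouse of burden 192718 and 358 without the mouse of burden 76666. With the number series as a block it was 784, again with 0 genes past the adjusted threshold and a smallest adjusted p of 0.647. Within series 11 and series 15 taken alone, 3 mice each, 6703 genes (59.3%) had slopes of the same sign.

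**Figure D1:**
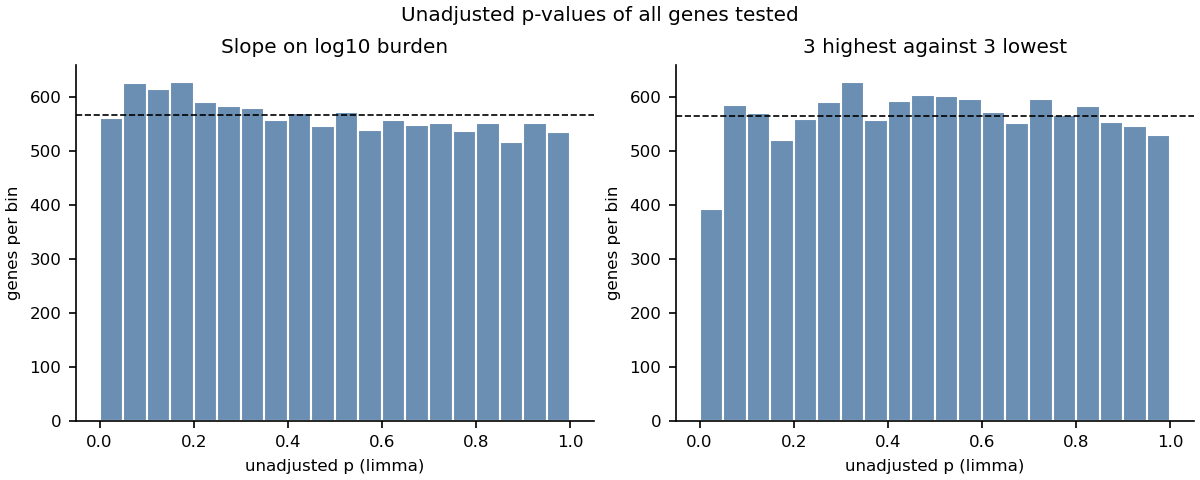
Histograms of the unadjusted limma p-values of all 11309 genes in bins of 0.05, for the slope on log10 burden (left) and for the 3 mice of highest against the 3 of lowest burden (right). The dashed line is the level of an even spread; the lowest bin holds 561 genes on the left and 393 on the right, and neither is above the line.

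The exact permutation test sets a limit of its own. The 6 burdens can be paired with 6 arrays in 720 ways, so the smallest two-sided p for a correlation is 0.00278. To pass the adjusted threshold over 11309 genes, at least 629 genes would have to reach that smallest p together. It was reached by 28 genes (0.248%), which were also the genes whose levels followed the order of the burdens exactly, 16 with a Spearman rho of 1 and 12 with a rho of -1. After adjustment over the 11309 relations the smallest permutation p was 0.954 for Pearson's r and 0.988 for Spearman's rho. For 3 against 3 mice there are 20 splits, and no gene can have an exact two-sided permutation p below 0.1.

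The 10 genes with the smallest slope p in the positive direction, among those detected on all 6 arrays, are described here without any of them passing the test. Each had a limma adjusted p of 0.916. Itch, a ubiquitin ligase that restrains T-cell activation, had levels of 7.29, 7.92, 7.88, 8.11, 8.11 and 8.80 log2 units from the lowest burden to the highest. Its lowest and highest levels lay in the mice of lowest and highest burden, and the 3 high mice lay above the 3 low mice. The slope was 1.07 ± 0.154 (SE, n = 6; limma adjusted p = 0.916, 95% confidence interval 0.71 to 1.43). Pearson's r for Itch was 0.98 (exact permutation p = 0.00833, adjusted 0.954) and Spearman's rho 0.94 (p = 0.0167, adjusted 0.988), and r was 0.89 without the mice of lowest and highest burden. Another detected Itch probe had a slope of 1.20 ± 0.258. NeuT- siblings had Itch levels of 6.86 to 8.04 with a mean of 7.52, inside the range of the 6 NeuT+ mice.

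Vpreb1, which encodes part of the surrogate light chain of the pre-B-cell receptor, had levels of 12.06, 12.30, 12.15, 12.53, 12.40 and 13.13. The mouse of highest burden stood above the other 5, which lay within a narrow span, and the high and low mice did not overlap. Its slope was 0.81 ± 0.166 (r = 0.94, exact permutation p = 0.0222, rho = 0.89, p = 0.0333), with r at 0.65 without the mice of lowest and highest burden. Igll1, which encodes the other part of the surrogate light chain, had levels of 12.86, 12.83, 12.75, 13, 12.94 and 13.81 and a slope of 0.76 ± 0.209. As for Vpreb1, the mouse of highest burden stood apart.

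Grb7, an adaptor protein that binds activated receptor tyrosine kinases, had levels of 8.11, 8.15, 8.49, 8.81, 8.26 and 9.75 and a slope of 1.27 ± 0.252 (r = 0.90, exact permutation p = 0.0278). The mouse of highest burden was again the highest, and the level at 192718 lay below that at 114730, so high and low mice overlapped. Itgb1, the beta 1 chain of integrins that anchor marrow cells to matrix and vessels, stood at 6.72, 6.51, 7.14, 7.23, 7.29 and 7.78, with a slope of 0.93 ± 0.194. High and low mice did not overlap for Itgb1, and r was 0.91 without the mice of lowest and highest burden. A dimmer Itgb1 probe, detected on 4 of the 6 arrays, had a slope of 0.39 ± 0.288. Bfsp2, a beaded filament protein best known from the lens, stood at 7.11, 7.29, 7.48, 8.11, 7.51 and 8.34, with a slope of 0.98 ± 0.207 and the smallest exact permutation p of the listed genes for Pearson's r, 0.00556 (adjusted 0.954). The remaining positive slopes were 1.19 for Arpp21, a cAMP-regulated phosphoprotein, 1.08 for Scn4b, a sodium channel subunit, 0.96 for 1700048O20Rik, 0.77 for 2610318N02Rik and 0.73 for Gimap6, a GTPase of lymphocytes.

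On the negative side the smallest p belonged to Ercc6l, a DNA helicase that acts on mitotic chromosomes. Its levels were 8.34, 8.02, 8.03, 7.85, 7.89 and 7.48, with the 3 high mice below the 3 low mice, and its slope was -0.62 ± 0.133 (SE, n = 6; limma adjusted p = 0.916). Pearson's r was -0.99 (exact permutation p = 0.0111, adjusted 0.954) and Spearman's rho -0.89 (p = 0.0333, adjusted 0.988), with r = -0.90 without the mice of lowest and highest burden. Pcna, the sliding clamp of DNA polymerase, stood at 9.32, 9.68, 8.52, 8.90, 8.54 and 8.0. Its slope was -1.14 ± 0.301 (r = -0.84, exact permutation p = 0.0361), and the level at 192071 lay above that at 114730. Mmp8, the collagenase of neutrophils, stood at 8.19, 8.69, 7.78, 7.65, 7.86 and 7.07, with a slope of -1.04 ± 0.270. High and low mice overlapped for Mmp8, since the level at 192718 lay above that at 114730.

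Nampt, which makes a precursor of NAD and is released by myeloid cells, stood at 9.02, 9.05, 8.13, 8.13, 8.48 and 7.83, with a slope of -0.96 ± 0.253 and with high and low mice overlapping. Nktr, a cyclophilin-related protein of natural killer cells, stood at 8.63, 9.0, 8.82, 8.54, 7.90 and 7.42, with a slope of -1.12 ± 0.305. For Nktr the 3 high mice lay below the 3 low mice. The other 5 slopes were -1.06 for Ifi202b, an interferon-inducible protein, -1.05 for Rc3h2, an RNA-binding protein that limits T-cell help, -0.93 for Snx29, a sorting nexin, -0.88 for Ppp4r3b, a subunit of protein phosphatase 4, and -0.60 for Psg23, a pregnancy-specific glycoprotein. The slope of Rc3h2 rested on 1 mouse: its levels lay between 7.95 and 8.27 in 5 mice and at 6.80 in the mouse of highest burden, and its slope was 0.13 without the mice of lowest and highest burden. A dimmer probe of Ifi202b, detected on all 6 arrays, had a slope of -0.16 ± 0.280.

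Across these 20 genes the mouse of highest burden was the highest of the 6 for all 10 positive slopes and the lowest for all 10 negative slopes. Without that mouse the positive slopes ran from 0.53 to 1.08 and the negative ones from -1.22 to -0.19, and an unadjusted limma p under 0.05 was kept by 4 of the 10 positive and 3 of the 10 negative genes. Within series 11 and within series 15 the slopes had the same sign for all 10 positive genes and for 9 of the 10 negative genes, Snx29 being the exception. For Rc3h2 the series 15 slope was -0.019. These genes were chosen by their slopes over the same 6 mice, so the shared sign is not independent of the choice. Of the 561 genes with an unadjusted p under 0.05, 481 had the same sign in both series, beside 6703 of all 11309 genes (59.3%). Those 561 were also chosen by their slopes over the same 6 mice, so their count is not independent of the choice either. Exact permutation p-values for Pearson's r ran from 0.00556 to 0.0944 over the 20 genes. The mean of the 9 NeuT- siblings fell inside the range of the 6 NeuT+ mice for 8 of the 10 positive and 10 of the 10 negative genes.

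**Figure D2:**
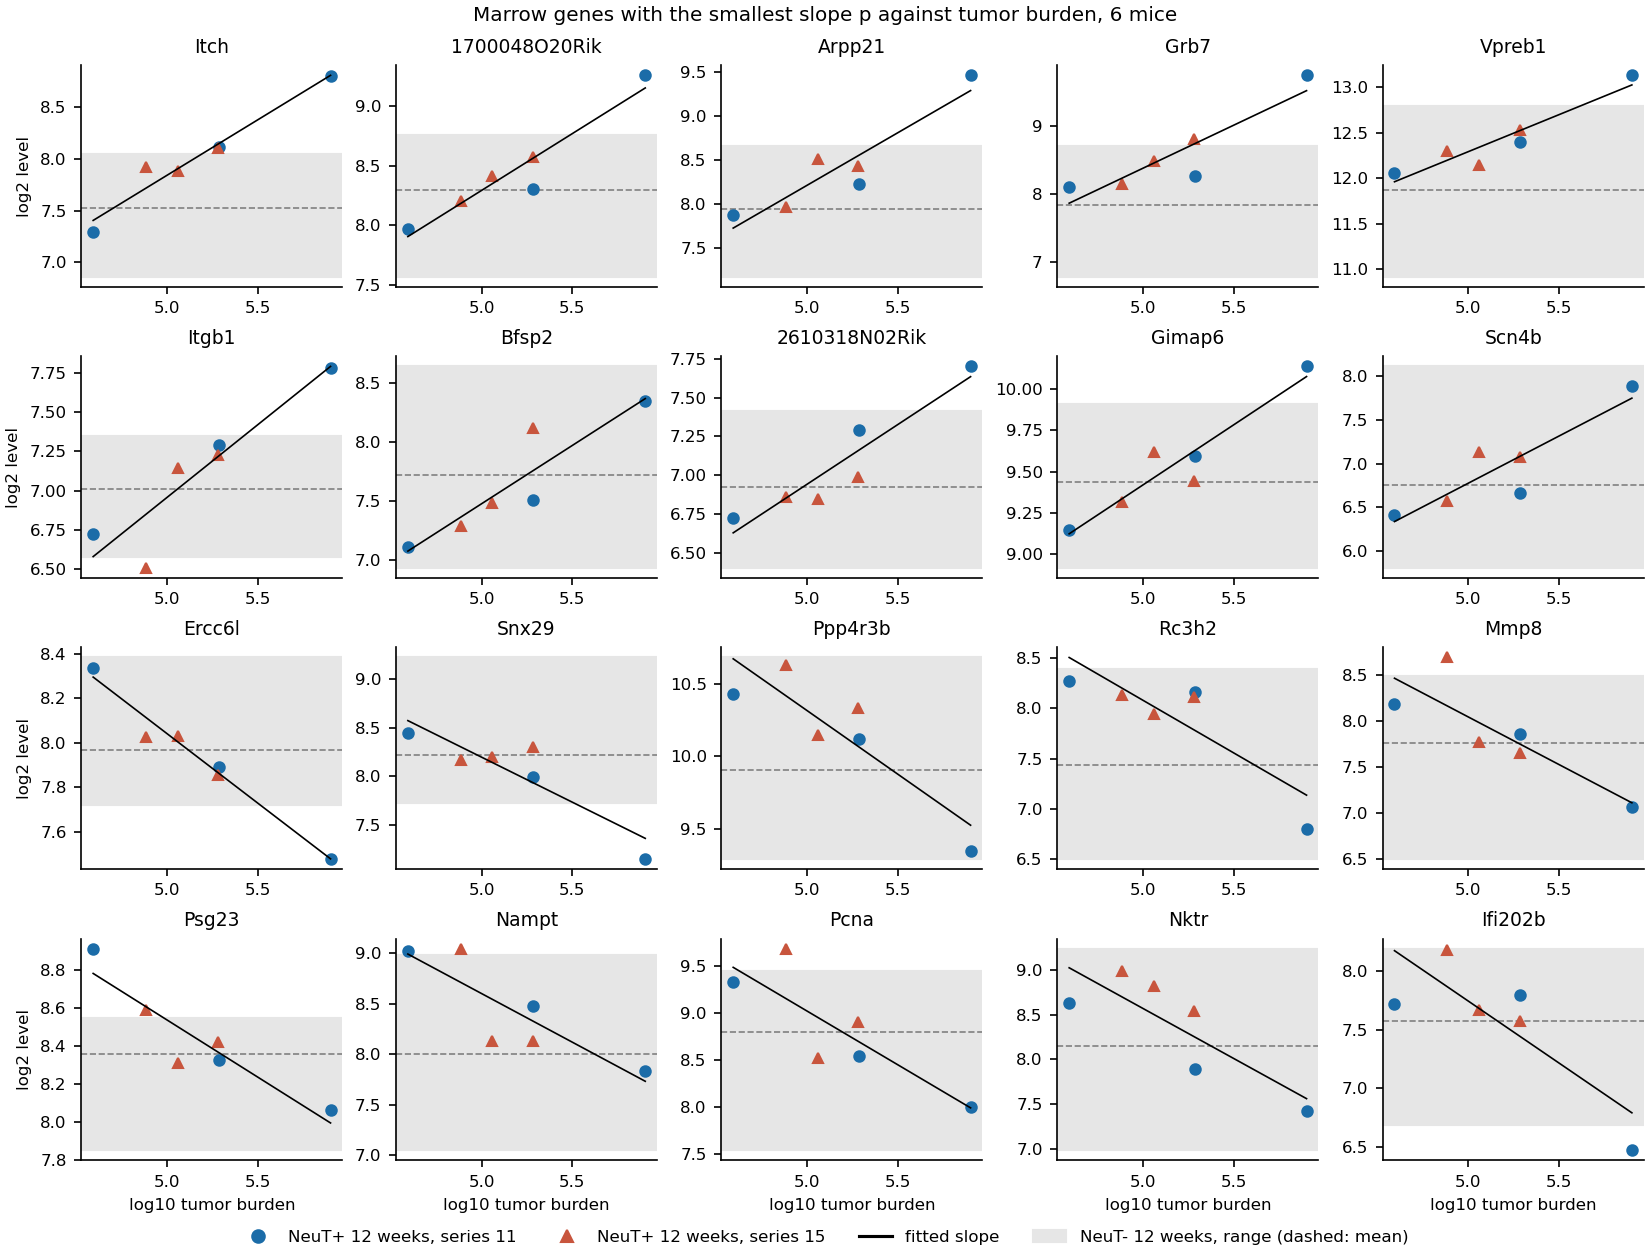
Log2 level (y axis) against log10 tumor burden (x axis) for the 10 genes with the smallest slope p in each direction, 1 point per NeuT+ mouse of 12 weeks, with circles for number series 11 and triangles for series 15. Lines are the fitted slopes, the grey band is the range of the 9 NeuT- mice and the dashed line their mean; in each panel the mouse of highest burden has the most extreme level, and in 10 of the 20 its gap to the nearest other mouse is wider than the span of the 5 others.

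The contrast of the 3 highest with the 3 lowest burdens also called no gene. In limma's fit 0 of 11309 genes (0%) had an adjusted p under 0.05, the smallest adjusted p was 0.992, and 393 genes (3.48%) had an unadjusted p under 0.05. That last count was 650 without the mouse of burden 192071. Levels of the 3 high mice all lay above those of the 3 low mice for 495 genes (4.38%) and all below for 514 genes (4.55%), 1009 in all (8.92%). Such a gene has the smallest exact permutation p that 3 against 3 mice allow, 0.1.

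Among the genes without overlap that were detected on all 6 arrays, the largest positive difference was that of ND5, a mitochondrially encoded subunit of respiratory complex I. It averaged 9.05 ± 0.772 log2 units in the high mice and 8.13 ± 0.174 in the low mice (SD, n = 3 each). The difference was 0.92 ± 0.350 (SE; limma adjusted p = 0.992), and the mouse of burden 192718 alone had a level above 9, at 9.94. Spic, a transcription factor of iron-recycling macrophages, averaged 8.80 ± 0.205 in the high mice and 8.14 ± 0.284 in the low mice, a difference of 0.66 ± 0.181. Serpinh1, a chaperone for collagen, averaged 7.85 ± 0.103 in the high mice and 7.21 ± 0.501 in the low mice, where the mouse of lowest burden stood at 6.65. The 9 NeuT- siblings had Serpinh1 levels of 7.73 to 8.20, a range that takes in the 3 high mice. Bfsp2 had a difference of 0.69 ± 0.224.

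The largest negative difference was that of Nktr, -0.86 ± 0.271, with 7.95 ± 0.564 in the high mice and 8.82 ± 0.184 in the low mice (SD, n = 3 each; limma adjusted p = 0.992). Cd300lg, a sialomucin of vessel walls, differed by -0.63 ± 0.182 and Man2b2, a lysosomal mannosidase, by -0.58 ± 0.228. Olfm1, an olfactomedin, differed by -0.59 ± 0.140 and Cmip, a signalling adaptor, by -0.56 ± 0.193, but other detected probes of both genes had slopes of the opposite sign. Against -0.57 for the Olfm1 probe used, the other probes had slopes of 0.15 and 0.16, and against -0.55 for Cmip an equally bright probe had 0.11. For Nktr the other probe had a slope of -0.72 ± 0.340, the same sign.

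Genes that distinguished NeuT+ from NeuT- marrow at 12 weeks in an earlier analysis of these arrays were set against burden within the 6 NeuT+ mice. Of the 13, 0 had an adjusted p under 0.05 for the slope in limma's fit of all genes (0% called), 1 had an unadjusted p under 0.05, and the median slope was 0.0093, equal to that of all genes. Since the 6 mice were part of the genotype comparison that gave the list, only their order by burden is new here.

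Peg3, an imprinted gene for a zinc finger protein, had levels of 12.04, 12.26, 12.54, 12.37, 12.34 and 11.93 from the lowest burden to the highest, and the mice at both ends of the burden range were the lowest of the 6. The slope was -0.13 ± 0.219 (SE, n = 6; limma adjusted p = 0.971, 95% confidence interval -0.64 to 0.38). The 3 NeuT+ mice with no recorded burden had 11.66 to 12.20, and the 9 NeuT- siblings had 5.29 to 6.76, with 1 of them detected. A dimmer Peg3 probe, detected on all 6 arrays, had a slope of 0.069 ± 0.476. All 9 NeuT+ mice of this age lay above every NeuT- level, and raw Peg3 signals in the 6 ran from 3665.7 to 5885.8.

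Trem1, an activating receptor of neutrophils and monocytes, averaged 11.98 ± 0.189 in the high mice and 12.12 ± 0.068 in the low mice (SD, n = 3 each). Its slope was -0.04 ± 0.174, and another detected Trem1 probe had 0.25 ± 0.214. Tnfaip3, an inhibitor of NF-kB signalling, stood at 10.93, 11.90, 10.88, 11, 11.18 and 10.55, with a slope of -0.52 ± 0.344. The level at a burden of 76666 was the highest and that at 798790 the lowest. Nfkbib, another NF-kB inhibitor, had a slope of -0.40 ± 0.268. Slopes of the stress and signalling genes were 0.34 ± 0.261 for Ddit3, a transcription factor of the stress response, 0.14 ± 0.309 for Dusp5, a phosphatase of ERK kinases, 0.11 ± 0.237 for Bbc3, which promotes apoptosis, and -0.26 ± 0.227 for Ets2, a transcription factor downstream of ERK. Cd160, a receptor of natural killer cells, had a slope of 0.23 ± 0.172. Slopes were 0.10 ± 0.243 for the histone gene H2ac8, -0.05 ± 0.178 for Qprt, an enzyme of NAD synthesis, and 0.0093 ± 0.162 for Dph2, an enzyme of diphthamide synthesis.

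Apold1, a gene of the vessel lining, had the largest slope of the 13, 1.12 ± 0.321 (limma adjusted p = 0.916, exact permutation p = 0.0778), but its probe was detected on 2 of the 6 arrays. Its levels were 5.25, 5.76, 6.34, 6.05, 5.50 and 6.94, with high and low mice overlapping. Erbb2 itself could not be followed, because the array's probe was detected in 0 of the 47 mice. Whether that probe binds RNA of the rat transgene was not tested.

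**Figure D3:**
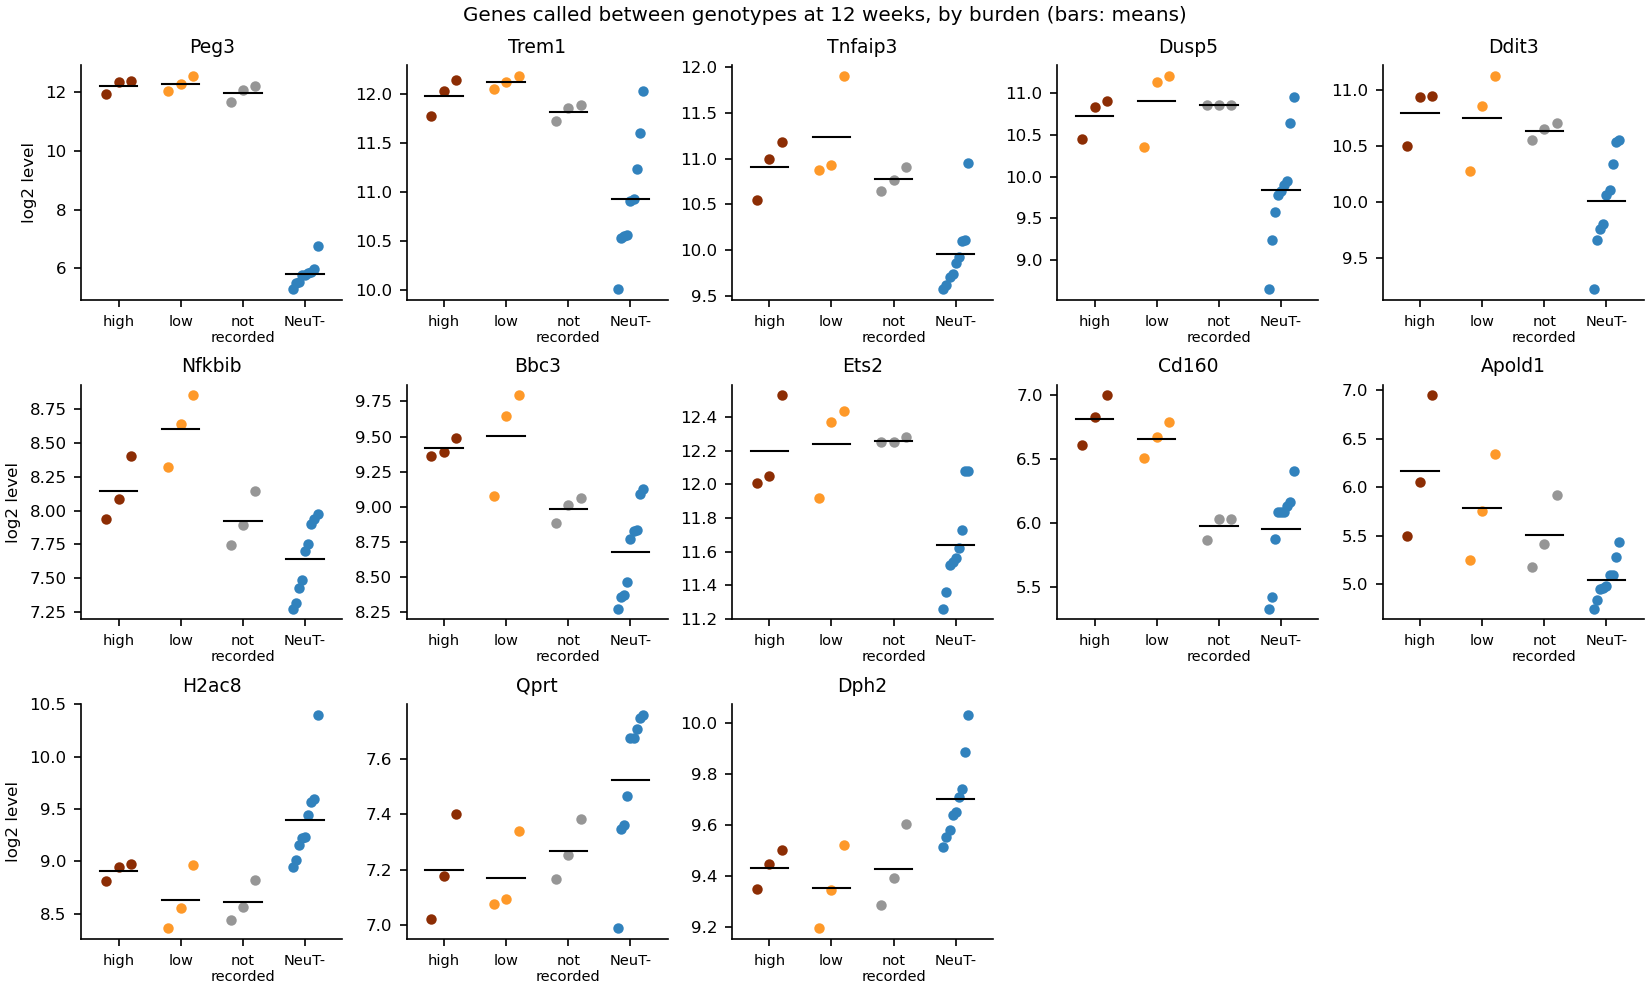
Log2 levels (y axes, each with its own range) of the 13 genes called between genotypes at 12 weeks, with 1 point per mouse and a bar for each mean. Columns are the 3 NeuT+ mice of highest burden, the 3 of lowest burden, the 3 with no recorded burden and the 9 NeuT- siblings; high and low mice lie at like levels for Peg3, at 11.93 to 12.54, against 5.29 to 6.76 in NeuT- mice.

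Lists of genes for marrow cell types and pathways were read member by member from the fit of all genes. Of 457 listed genes, each counted once, 356 were measured and 0 passed the adjusted threshold. An unadjusted p under 0.05 was reached by 29 of the 356 (8.15%), beside 4.96% of all genes. In bulk marrow, fewer cells of a type and less RNA per cell cannot be told apart. The median slope of the 31 lists ran from -0.28 to 0.77, beside 0.0093 for all genes. With 1 mouse left out, 18 of the 31 medians changed sign. Other probes detected on all 6 arrays existed for 15 of the genes named here, and 8 of those 18 probes had a slope of the opposite sign. Where a count of members below holds 5 or fewer, those named were picked after their values were seen.

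Neutrophil and monocyte genes, the products of the lineages that tumors are known to expand, had mostly negative slopes. Among 17 measured genes of neutrophil secondary granules and maturation 15 had a negative slope and 2 a positive one, and 1, Mmp8, had an unadjusted p under 0.05. Their median slope was -0.18. Cxcr2, the receptor by which neutrophils leave the marrow, stood at 12.08, 11.96, 11.87, 11.63, 11.48 and 11.68, with the high mice below the low mice and a slope of -0.37 ± 0.180 (limma adjusted p = 0.929). NeuT- siblings had Cxcr2 levels of 10.88 to 12.06. The 9 primary granule genes had a median slope of -0.0095 and the 12 monocyte genes one of -0.27, with 10 of the 12 negative. Ccr2, the receptor by which monocytes leave the marrow, stood at 8.22, 8.04, 8.19, 7.55, 7.62 and 7.75, with the high mice below the low mice and a slope of -0.45 ± 0.219. Klf4, a transcription factor of monocytes, had -0.47 ± 0.284, while its 2 other detected probes had slopes of 0.19 and 0.20.

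Genes linked to myeloid suppressor cells had a median slope of -0.12 over 15 measured members, 12 of them negative, which was -0.35 without the mouse of highest burden and -0.081 without the mouse of lowest burden. The single member with an unadjusted p under 0.05 was Cybb, a subunit of the phagocyte NADPH oxidase, with a slope of -1.15 ± 0.235 (limma adjusted p = 0.916) from a probe detected on 1 of the 6 arrays. Of the members detected on all 6, Clec4d, a lectin receptor of myeloid cells, had a slope of -0.41 ± 0.219, and Arg2, an arginase, one of -0.53 ± 0.304, neither past an unadjusted p of 0.05. Receptors for growth factors and cytokines had the lowest median of all lists, -0.28, with 14 of 16 negative. Il1r2, the decoy receptor for interleukin 1, stood at 10.15, 10.77, 10.30, 10.19, 10.04 and 9.49, lowest in the mouse of highest burden and with high and low mice overlapping. Its slope was -0.69 ± 0.260 (limma adjusted p = 0.929), and the 9 NeuT- siblings had a mean of 9.31. Inflammatory cytokine and NF-kB genes had a median slope of -0.026 over 24 members, and the 2 past an unadjusted p of 0.05 were Il1r2 and Il6, an inflammatory cytokine, with a slope of -0.82 ± 0.283 and detection on 1 of the 6 arrays.

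Resident macrophage genes leaned the other way, with a median slope of 0.39 and 11 of 14 positive. An unadjusted p under 0.05 was reached by 3, all positive, Spic, C1qa and C1qb. C1qa, a chain of the complement component that macrophages secrete, stood at 8.41, 8.96, 8.75, 9.09, 9.0 and 9.26, with a slope of 0.58 ± 0.173 (limma adjusted p = 0.916). The high mice lay above the low mice, and the lowest level was that of the mouse of lowest burden. The list's median depended on that mouse: without it the median was -0.026, and without the mouse of highest burden it was 0.79.

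Bone, vessel and stromal genes had positive medians from few well detected members. The osteoblast and osteocyte list had the highest median of all, 0.77, with 7 of 8 members positive, 4 detected on all 6 arrays and 2 on none. Bglap, osteocalcin, stood at 9.38, 9.57, 9.48, 11.31, 9.54 and 10.94, with the mice of burden 192071 and 798790 above the other 4 and a slope of 1.34 ± 0.519 (limma adjusted p = 0.929). Its probe can bind RNA of the near-identical Bglap2. Alpl, the alkaline phosphatase of bone, stood at 6.43, 6.53, 7.03, 6.70, 6.78 and 7.53, highest in the mouse of highest burden and with high and low mice overlapping, and its slope was 0.79 ± 0.199. Without the mouse of lowest burden the median of the list was 0.37.

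Endothelial genes had a median slope of 0.38, with 9 of 11 positive. Of these, 4 reached an unadjusted p under 0.05, Stab2, Eng, Cdh5 and Cldn5. Cdh5 was detected on 2 of the 6 arrays and Cldn5 on none. Stab2, a scavenger receptor of marrow sinusoids, stood at 6.87, 7.05, 7.23, 7.70, 7.38 and 7.77, with the high mice above the low mice and a slope of 0.74 ± 0.171 (limma adjusted p = 0.916). Eng, a co-receptor for TGF-beta, had a slope of 0.53 ± 0.152. The NeuT- siblings had Stab2 levels of 7.09 to 7.62, inside the range of the 6 mice. The endothelial median was 0.16 without the mouse of highest burden, and 0.20 in the authors' deposited log2 values.

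Mesenchymal stroma and extracellular matrix genes had a median of 0.23 over 11 members, of which 5 were detected on no array of the 6. Dcn, the matrix proteoglycan decorin, had a slope of 0.85 ± 0.422, and Bgn, the related biglycan, one of 0.80 ± 0.386. Both had their lowest level of the 6 in the mouse of lowest burden, 7.28 and 6.59, below the 9 NeuT- siblings, whose lowest levels were 7.85 and 7.69. Other NeuT+ mice also lay below the siblings. Dcn stood at 7.51 at a burden of 114730 and at 5.82 to 7.61 in the mice with no recorded burden. Bgn stood at 7.68 at burdens of 76666 and 192718. Without the mouse of lowest burden the list's median was 0.066. Adipocyte genes had a median of 0.22 over 4 measured members, with a slope of 0.80 ± 0.244 for Pparg, the transcription factor of fat cells, and of 0.24 ± 0.203 for Lpl, lipoprotein lipase. That median was 0.82 without the mouse of highest burden and 0.11 without the mouse of lowest burden. Skeletal muscle genes, a check on tissue around the bone, had a median of 0.16 over 6 members, 3 of them detected on none of the 6 arrays.

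Megakaryocyte and platelet genes had a median slope of 0.58, with 10 of 11 positive and none past an unadjusted p of 0.05. The mean level of its members, taken relative to the mean of the 6 mice, was 0.43, -0.62, -0.67, -0.53, 0.74 and 0.65 from the lowest burden to the highest, so that the 3 mice of series 11 were high and the 3 of series 15 low. The list's difference between the series was not tested. With the series as a block the median slope was 0.16. It was -0.11 without the mouse of highest burden and 1.61 without the mouse of lowest burden. Gp1bb, a subunit of the platelet receptor for von Willebrand factor, stood at 9.49, 8.41, 8.51, 8.84, 9.78 and 10, with a slope of 0.76 ± 0.497, and Gp9, another subunit, had 0.61 ± 0.372.

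Lymphoid and erythroid lists had medians near that of all genes. B-cell development genes had a median of -0.011, with 7 of 14 positive, and the 2 past an unadjusted p of 0.05 were Vpreb1 and Igll1, the surrogate light chain genes. Plasma cell genes had a median of -0.0046, T and natural killer cell genes one of 0.0074, and dendritic cell genes one of 0.025. Prf1, the pore-forming protein of killer cells, had a slope of -0.48 ± 0.288. Siglech, a marker of plasmacytoid dendritic cells, had -0.45 ± 0.156 with the probe used and 0.35 ± 0.311 with a dimmer detected probe. Zbtb46, a transcription factor of conventional dendritic cells, had 0.32 ± 0.152.

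MHC class II presentation genes had a median of 0.21 over 10 members, with slopes of 0.42 ± 0.197 for H2-Oa and 0.48 ± 0.249 for H2-DMb2, both subunits of molecules that steer peptide loading, and this median was 0.0012 without the mouse of highest burden. The single member past an unadjusted p of 0.05 was H2-Aa, a class II chain, with -0.57 ± 0.243 and detection on none of the 6 arrays. Erythroid genes had a median of 0.048 over 11 members, which was 0.97 without the mouse of highest burden and -0.19 without the mouse of lowest burden. Car2, the carbonic anhydrase of red cells, had a slope of 0.47 ± 0.311, and Ermap, a red cell membrane protein, one of -0.40 ± 0.289. Stem and progenitor genes had a median of -0.14, eosinophil genes of -0.056, basophil and mast cell genes of -0.20, and osteoclast genes of 0.030.

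Programs shared by many cell types had medians of both signs. Cell cycle genes had a median of -0.018 over 20 members, 10 positive and 10 negative. The 2 past an unadjusted p of 0.05 were Pcna and Ccna2, the latter detected on 4 of the 6 arrays. Rrm2, a subunit of ribonucleotide reductase, had a slope of 0.30 ± 0.167 with the probe used, and 0.12 ± 0.228 and 0.086 ± 0.247 with 2 other probes. Interferon response genes had a median of -0.11 over 18 members, which was -0.24 without the mouse of lowest burden and 0.16 without the mouse of highest burden. Oasl2 had a slope of -0.61 ± 0.186 and Rsad2, an antiviral protein, one of 0.57 ± 0.284, so members of both signs were among those with the smallest p.

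Immediate early genes had a median of -0.074. Egr3, an early growth response factor, stood at 8.23, 8.99, 8.81, 8.77, 8.96 and 9.24, with a slope of 0.62 ± 0.206, and Fos, a subunit of AP-1, had -0.31 ± 0.165. The unfolded protein and integrated stress response list had a median of -0.055, with -0.51 ± 0.156 for Hsp90b1, a chaperone of the endoplasmic reticulum, and 0.32 ± 0.200 for Sdf2l1, another protein of that compartment. In that list Hspa5, a chaperone of the same compartment detected on 5 of the 6 arrays, had the smallest p, with a slope of -1.39 ± 0.396. Medians were 0.068 for hypoxia and glycolysis genes, -0.15 for heat shock and chaperone genes, beyond the 25th percentile of all slopes (-0.14), and 0.074 for ribosomal protein genes.

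Mammary epithelium and tumor genes, a check on tumor cells in the marrow, had a median slope of 0.028 over 11 measured members. Of these 8 were detected on none of the 6 arrays, among them Krt8, Krt18, Krt19 and Krt14, and 2 on all 6, Cdh1 and Lcn2. The remaining member, Esr1, the estrogen receptor, was detected on 2 of the 6 and had the list's smallest p, with a slope of -0.87 ± 0.194 (limma adjusted p = 0.916). Cdh1 and Lcn2 are also expressed by blood-forming cells. Cdh1, E-cadherin, had a slope of -0.44 ± 0.234, and Lcn2, a neutrophil granule protein, one of -0.08 ± 0.130. Lcn2 levels lay at 15.90 to 16.01 in the 6 mice and 15.84 to 16.01 in the NeuT- siblings, with 16.01 repeated on several arrays. Whether its signal was at the top of the measurable range was not tested.

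**Figure D4:**
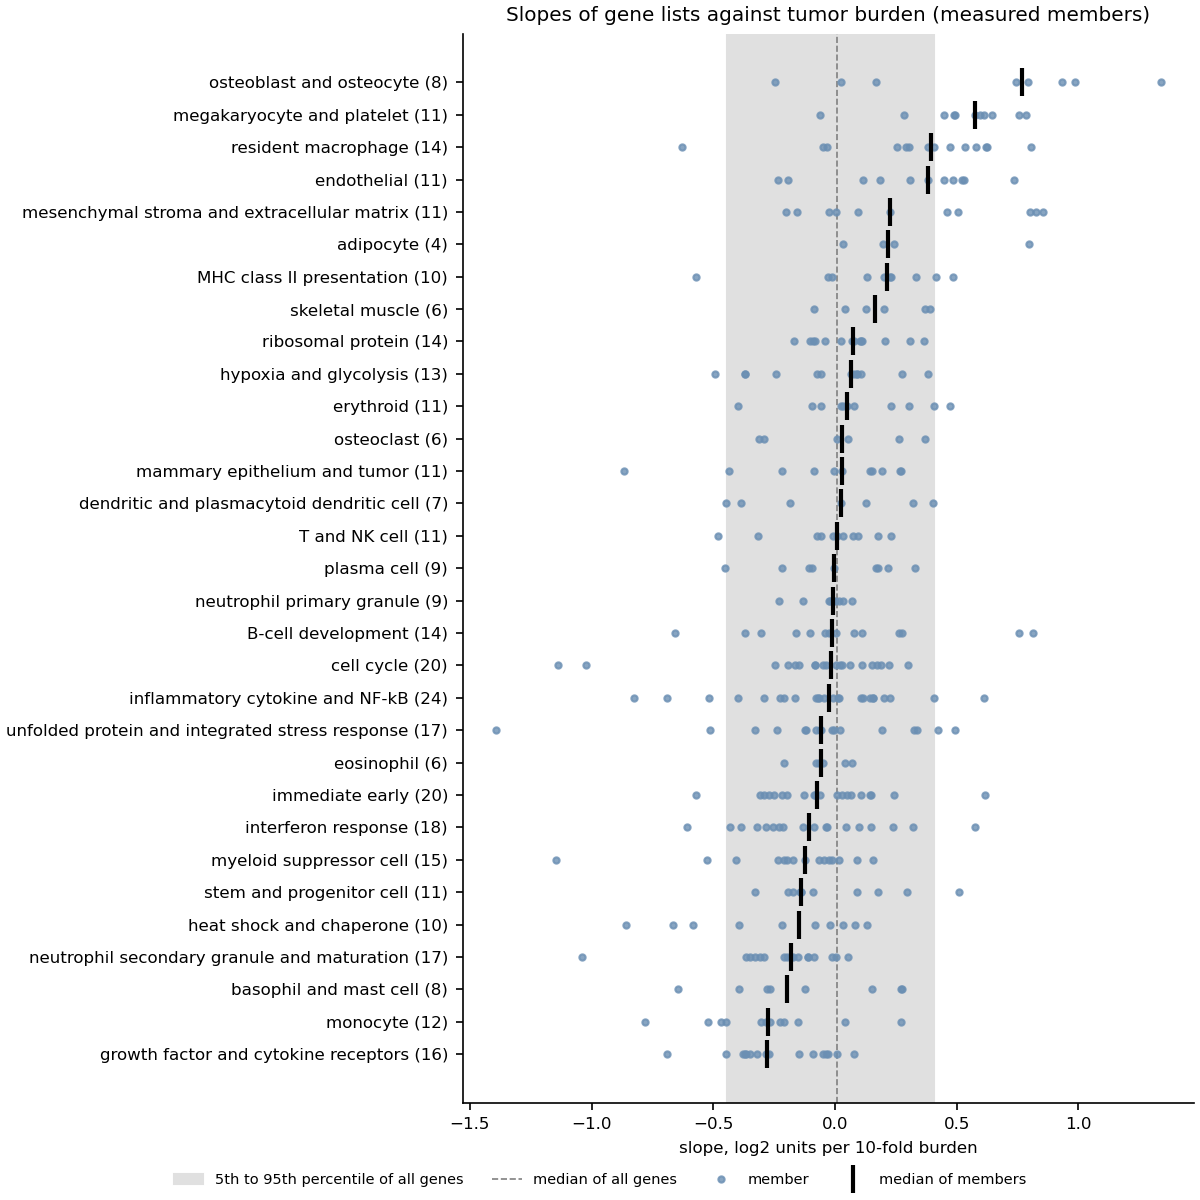
Slopes on log10 burden (x axis, log2 units per 10-fold burden) of the measured members of 31 gene lists, 1 point per gene, with the number measured in parentheses and a bar for each list's median. The shaded band runs from the 5th to the 95th percentile of all 11309 slopes and the dashed line is their median, 0.0093; the medians run from -0.28 for growth factor and cytokine receptors to 0.77 for osteoblast and osteocyte genes.

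The slopes at 12 weeks were set against those in the 6 NeuT+ mice of 24 weeks, whose slopes were not used to choose the 20 genes, though their arrays entered the detection filter and the choice of probe. Whether burden has the same unit at both ages is not stated in the labels, and values are set side by side as given; a slope per 10-fold burden does not depend on a linear unit. Burdens at 24 weeks ran from 20296073 to 156499187, above every burden at 12 weeks, over a narrower range of 0.89 log10 units. By animal number the 24-week mice of burden 74905111 and 101006151 belonged to series 12 and the others to series 13. The difference between the slopes of both ages had an adjusted p under 0.05 for 0 of 11309 genes (0%) in limma's fit with age and an interaction term, the smallest adjusted p was 0.375, and 596 genes (5.27%) had an unadjusted p under 0.05. With the number series within each age as a block, limma's fit again called 0 genes, and the smallest adjusted p was 0.865. At 24 weeks alone 0 of 11309 genes had an adjusted p under 0.05 in limma's fit and 262 of 11309 an unadjusted p under 0.05. In all, 21 of 11309 genes had an unadjusted p under 0.05 at both ages. Whether unrelated lists of these sizes would share as many was not tested. Of the 561 genes with an unadjusted p under 0.05 at 12 weeks, 348 (62%) had a slope of the opposite sign at 24 weeks. Of all 11309 genes, 6396 (56.6%) did.

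Of the 10 genes with the smallest p among positive slopes 8 had a negative slope at 24 weeks, and of the 10 with negative slopes 7 had a positive one. Vpreb1 had a slope of 0.81 ± 0.166 at 12 weeks and -1.51 ± 0.726 at 24 weeks, a difference of 2.32 ± 0.705 (SE, n = 6 and 6; limma adjusted p = 0.832). For 1700048O20Rik the slopes were 0.96 ± 0.167 at 12 weeks and -1.56 ± 0.361 at 24 weeks, and the difference of 2.51 ± 0.377 had the smallest adjusted p of all genes, 0.375. Bfsp2 had 0.98 ± 0.207 at 12 weeks and -1.78 ± 0.507 at 24 weeks, Grb7 1.27 ± 0.252 and -1.51 ± 0.452, and Arpp21 1.19 ± 0.217 and -1.22 ± 0.590. Itch had a positive slope at both ages, 1.07 ± 0.154 at 12 weeks and 1.27 ± 0.977 at 24 weeks. At 24 weeks the mice of number series 12 had Itch levels of 8.15 and 8.47, and the others had 6.55 to 7.05. How far the Itch slope at 24 weeks follows the number series was not tested. The B-cell development list as a whole had a median slope of -0.011 at 12 weeks and -1.41 at 24 weeks, beside a median over all genes of 0.0093 at 12 weeks and -0.036 at 24 weeks. Other lists also had negative median slopes at 24 weeks, -1.54 for erythroid genes, -1.01 for basophil and mast cell genes, -0.96 for MHC class II genes and -0.56 for T and natural killer cell genes. The 24-week mouse of burden 101006151 had the lowest levels of Vpreb1, 9.18 against 10.51 to 11.33 in the others, and of Car2, 9.54 against 11.07 to 12.08. Ermap stood at 8.50 there, against 9.7 to 10.6, while Prf1 was not lowest there, at 10.47. Of the genes with positive slopes at 12 weeks, the same mouse was also lowest for 1700048O20Rik (6.80), Arpp21 (5.95), Grb7 (5.82) and Bfsp2 (5.25). It was lowest for Gimap6 (6.63) and Scn4b (4.88) too, but not for 2610318N02Rik (6.64). How far the 24-week slopes and medians rest on that mouse was not tested. Neutrophil secondary granule genes had a median of -0.18 at 12 weeks and 0.11 at 24 weeks.

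**Figure D5:**
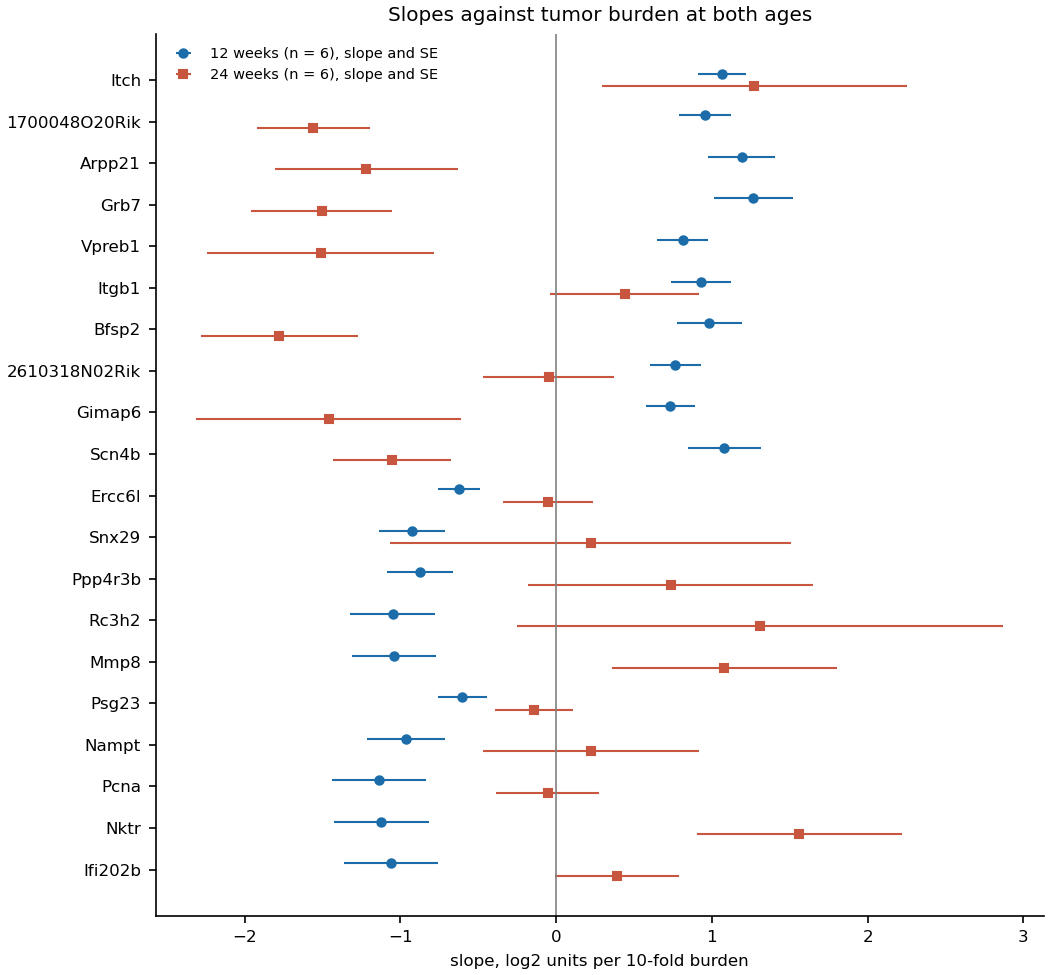
Slopes on log10 burden (x axis, log2 units per 10-fold burden) with standard errors for the 10 genes with the smallest slope p in each direction at 12 weeks, shown for the 6 NeuT+ mice of 12 weeks (circles) and the 6 of 24 weeks (squares). The 12-week values chose the genes; 15 of the 20 have the opposite sign at 24 weeks, and no difference between ages passed the adjusted threshold.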

How the data were processed

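Marrow RNA of 47 mice and 5 undescribed reference samples was hybridised to Illumina mouseWG-6 v2.0 arrays. The series' design text names a TotalPrep amplification kit and the labels' protocol field a DASL assay, and these are not reconciled here. The deposited raw table gave a linear intensity and a detection p-value for each of 45281 probes, from BeadStudio 3.3.8 as the design text states. The authors' deposited log2 values had been robust spline normalized with lumi per that text, in a version not given in the sources used here, and served as an alternative.

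Limma 3.58.1 (R 4.3.3) corrected the raw intensities for background and quantile normalized them with neqc, at an offset of 16, over all 52 arrays. A probe was kept if its detection p was under 0.01 on 1 array or more, which left 21592 probes, 18225 of them with 1 gene symbol. Symbols came from the platform annotation (34885 probes with 1 symbol, 18 with several, 10378 not listed) and were updated through a RefSeq table of GRCm38.p6, by Entrez number for 34807 probes and by accession for 11. The other 67 kept their symbol, and 10 symbols were replaced. Each of 11309 genes was read from 1 probe, the brightest on average in the 47 mice. No column lacked a sample (0).

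Slopes on log10 burden, the high against low contrast and the difference of slopes between ages were fitted with lmFit and eBayes, with Benjamini-Hochberg adjustment over all genes and a threshold of 0.05. Pearson and Spearman correlations were tested by exact two-sided permutation over all pairings. The slope fit was checked on simulated data. A list's level in a mouse was the mean over members of the log2 level minus the mean of the 6 mice. Named genes were the 10 with the smallest slope p in each direction among genes detected on all 6 arrays, the 5 largest non-overlapping high minus low differences in each direction among such genes, the 13 genotype genes, from each of 20 lists the 2 members with the smallest slope p among those detected on all 6 arrays, and Erbb2. Of these, 1 gene is not reported here. The members and lists were chosen with earlier results of these data known. Alternatives covered the normalization, the detection filter, the choice of probe, the scale of burden, the number series as a block, all 47 mice in the fit, and each mouse left out in turn.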

Additional observations from a re-analysis of the deposited data

Results flagged for a closer look

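In groups of 6, a single sample was singled out when its gap to the nearest other, as a share of the whole range, exceeded Dixon's 95% critical value of 0.625. Chance alone gives such a gap in about 1 in 20 groups, and 76 genes and the level of each gene list were examined. On the linear scale the burden of 798790 had a gap share of 0.798, and burden was used on the log10 scale. The mouse of that burden was the lowest for Snx29 (0.647), Rc3h2 (0.778), Ifi202b (0.647), Siglech (0.685), Oasl2 (0.668) and Hsp90b1 (0.704), and the highest for Igll1 (0.764). Snx29, Rc3h2 and Ifi202b are among the 10 genes with the smallest p for a negative slope. The mouse of burden 192718 was the highest for ND5 (0.642). The mouse of lowest burden, 39293, was the lowest for Bgn (0.708) and for the level of the adipocyte list (0.858), whose 6 values were -0.43, 0.05, 0.08, 0.06, 0.13 and 0.09 from the lowest burden to the highest. The mice of burden 39293, 192718 and 798790 had 15810, 15617 and 15464 detected probes, against 15455 to 16123 in the others, and the mouse of burden 39293 had the highest median raw signal, 153.8. The part of these measures in the values above was not tested.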

How the results depend on the processing

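The count of genes past the adjusted threshold stayed 0 under all 19 alternatives for the slope, 15 for the high against low contrast, 8 for the difference between ages and 8 for the genotype genes, with smallest adjusted p-values of 0.257, 0.312, 0.134 and 0.59. No single value of the 86 followed became significant, and 66 kept their sign in every alternative. The number of genes with an unadjusted slope p under 0.05, 561, ran from 249 without the mice of lowest and highest burden to 931 of 19053 genes without the detection filter, with 345 when all 47 mice were fitted. Normexp with median scaling set the median slope of all genes at -0.13, and under it the slopes were -0.044 for Dusp5, -0.052 for Bbc3, -0.052 for H2ac8 and -0.16 for Dph2, or 0.083, 0.075, 0.076 and -0.030 relative to that median. Under it the list medians of dendritic cell, T and NK cell, osteoclast and hypoxia genes lay -0.030, -0.015, -0.028 and -0.021 from that median, and those of erythroid and ribosomal protein genes 0.045 and 0.082 from it. Without the mice of lowest and highest burden slopes had the opposite sign for Rc3h2 (0.13), Peg3 (0.099), Dusp5 (-1.54), Ddit3 (-0.54), Bbc3 (-1.06), Apold1 (-0.31), Qprt (0.37), Prf1 (0.16), H2-Oa (-0.023), H2-DMb2 (-0.67), Car2 (-0.26), Lpl (-0.067), Cdh1 (0.18) and Egr3 (-0.24), over 4 mice. The mean of all probes gave 0.10 for Trem1, -0.035 for Bbc3 and -0.22 for Car2. Linear burden gave 0.022 for Trem1, rank of burden 0.0030 for Qprt, the series block -0.047 for Dph2 and the authors' deposited values 0.038 for Lcn2. With each mouse left out in turn slopes ran from -0.26 to 0.25 for Bbc3, -0.044 to 0.99 for Car2, -0.0077 to 0.45 for Cd160, -0.0084 to 0.54 for Ddit3, -0.11 to 0.16 for Dph2, -0.29 to 0.31 for Dusp5, -0.82 to 0.26 for Ermap, -0.041 to 0.40 for H2ac8, -0.45 to 0.45 for Peg3, -0.12 to 0.10 for Qprt and -0.37 to 0.0080 for Trem1. The sign of 13 of 31 list medians was kept in all of these fits. The cause of these changes was not tested. No paired analysis was possible because the contrast is between different mice and their replicate numbers are names in accession order. With 6 mice, the unadjusted 95% confidence interval of a slope reached a median of 0.43 to either side among genes detected on all 6 arrays. Slopes larger than that also missed the adjusted threshold.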
